A study of Mus musculus with 4 samples.

Results

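The Hippo pathway genes Yap1, Wwtr1, Tead1, Tead3, Tead4, Lats1, Lats2, Amotl2 and Wwc1, and the gene of the LIM-domain protein Ajuba, were examined for p63 binding in newborn mouse epidermis. A p63 peak was assigned to a gene when its summit, the position of highest coverage, fell inside the gene or no more than 50 kb beyond either end (mm10 coordinates). The genes were chosen by an earlier look at these same peak lists, so that they carry peaks is a description and was not tested. By this rule 28 of 14593 peaks of the library labelled p63 alphaKO and 30 of 10616 peaks of the wild-type library belonged to the 10 genes, out of 21887 protein-coding genes in all.

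Chromatin immunoprecipitation with an antibody to p63 was followed by sequencing in epidermis from dorsal skin at postnatal day 0, with 1 ChIP library and 1 input library from p63 alphaKO animals (alphaKO) and 1 of each from wild-type animals (WT); the inputs were not used here. The epidermis had been freed from the dermis and the cells fixed in suspension, and the antibody was EPR570. Sources used here give neither the allele behind alphaKO nor the number, strain or sex of the animals. With 1 library per genotype no difference between genotypes could be tested and no replicate error exists. The 95% Wilson intervals given with shares describe counting error alone, and reads that carry no molecular identifier may repeat the same molecule.

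The Hippo pathway is a kinase cascade that limits tissue growth. LATS kinases phosphorylate the coactivators YAP (Yap1) and TAZ (Wwtr1) and keep them out of the nucleus, and YAP and TAZ that reach the nucleus act on genes through the TEAD DNA-binding proteins. In the epidermis YAP and TAZ are known for sustaining proliferation of basal keratinocytes, the layer in which p63 is most abundant.

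The alphaKO list had higher fold enrichment as a whole. Fold, the ratio of the coverage at the summit to the peak caller's local background, had a median of 15.5 over all alphaKO peaks and 8.44 over all WT peaks. Because of this shift, each peak is also given by its percentile by fold within its own list. Over the 7054 sites where peaks of the lists were each other's best partner, the ratio of alphaKO fold to WT fold had a median of 1.68 (quartiles 1.19 and 2.41). Local background at the 10 genes lay between 4.37 and 13.1 in alphaKO and between 6.32 and 14.5 in WT. Its median there was lower in alphaKO (6.56) than in WT (9.87), which enters the folds.

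Of the 10 genes, 9 had at least 1 peak in the alphaKO list, and the same number had one in the WT list. Over all protein-coding genes, 55.1% had one in alphaKO, 47.1% in WT and 41.0% in both. Lats2 was the exception in both libraries. The windows of the 10 genes held 15.8 alphaKO peaks and 16.9 WT peaks per Mb, where the merged windows of all protein-coding genes held 7.01 alphaKO peaks and 5.36 WT peaks per Mb. Since the peaks were used in choosing the genes, nothing is read from these figures.

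Sites at these genes were mostly listed in both libraries. A partner, meaning a peak of the other list sharing at least 1 bp, was found for 23 of 28 alphaKO peaks (82.1%, 64.4 to 92.1), beside 48.4% of all alphaKO peaks. It was found for 23 of 30 WT peaks (76.7%, 59.1 to 88.2), beside 66.6% of all WT peaks. Peaks of both lists entered the choice of the genes, so nothing is read from these shares either. When only summits inside gene bodies counted, the share was 92.3% in alphaKO and 92.3% in WT. The share over all gene-body peaks was not computed, so nothing is read from this rise.

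**Figure D1:**
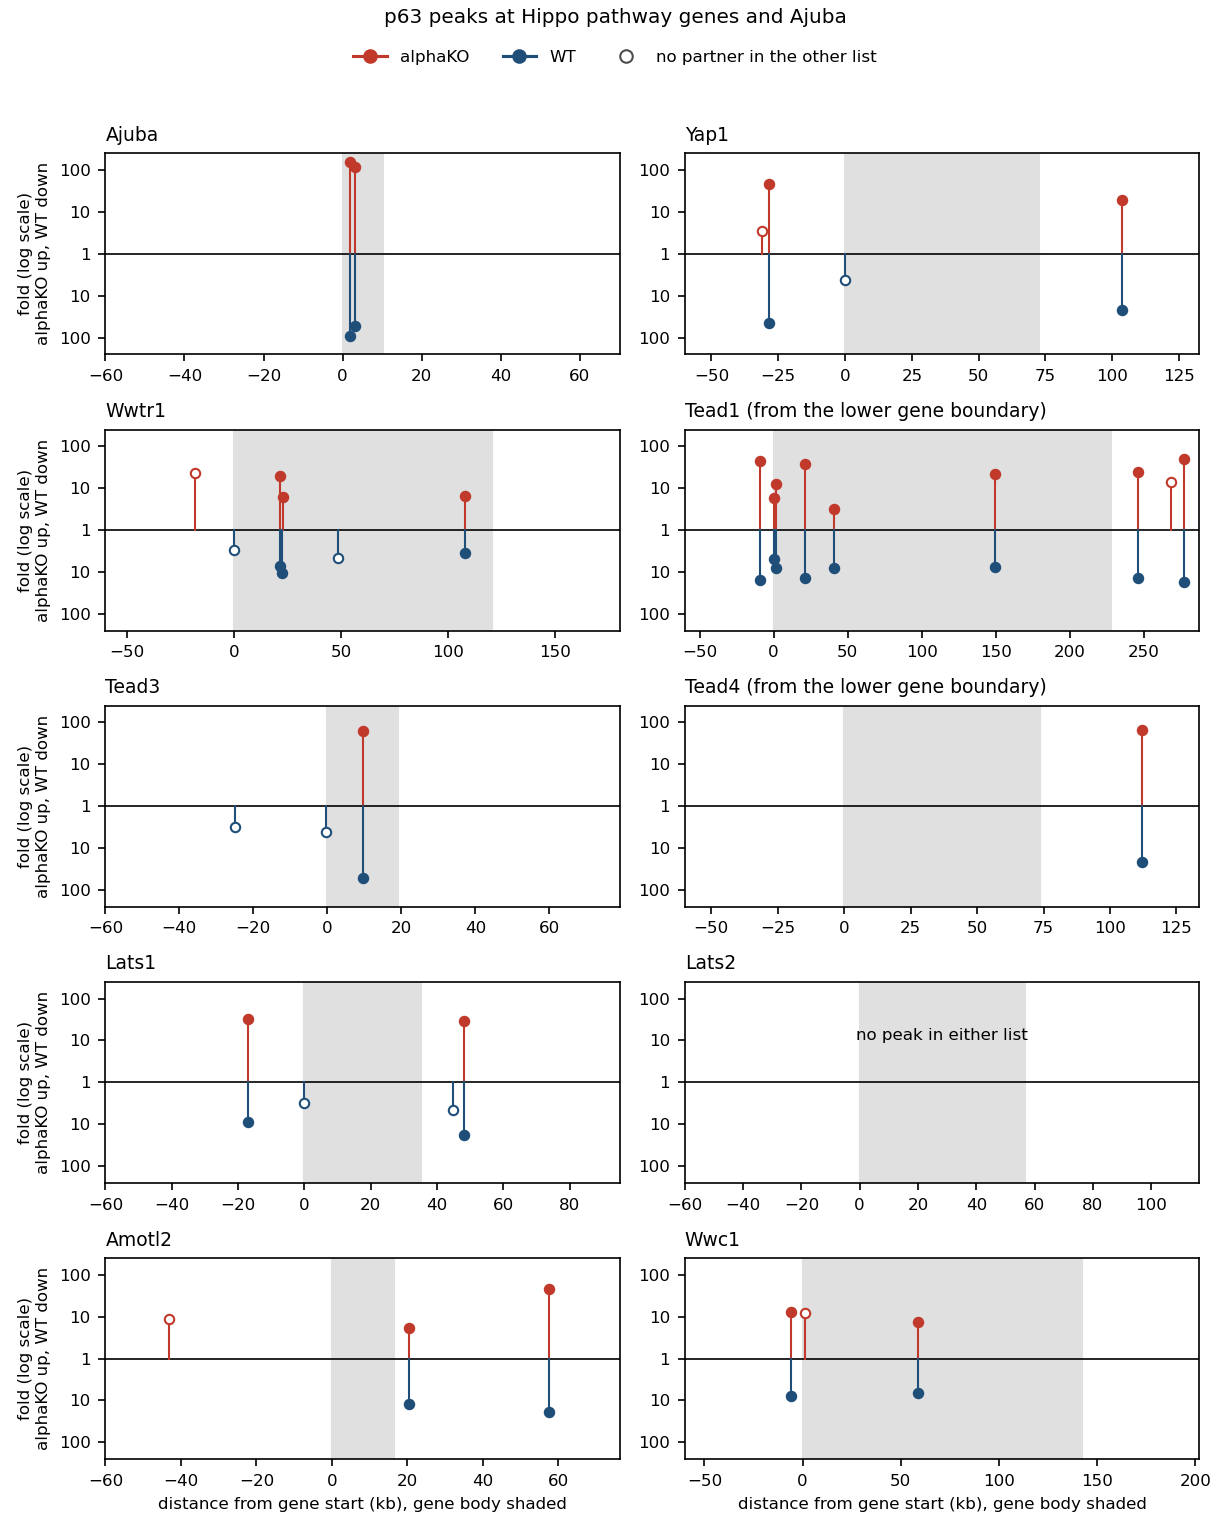
Each panel shows 1 gene with p63 peaks placed by the distance of the summit from the gene start in kb (for Tead1 and Tead4, from the gene boundary with the lower coordinate), with fold enrichment on a log scale pointing up for alphaKO and down for WT. Filled points have a partner in the other list and open points have none; Ajuba carries the strongest pair, Tead1 the most sites and Lats2 none.

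Ajuba encodes a LIM-domain scaffold protein that associates with LATS kinases and with cell junctions and holds Hippo signalling in check. Its sites were the strongest of the 10 genes in alphaKO. In WT its stronger site was first among them, and its other site (fold 51.6) stood beside the Tead3 site (51.9). The gene spans 54567469 to 54577661 on chromosome 14 (minus strand). Both sites lay inside it, 1.86 kb and 3.2 kb (alphaKO) or 3.19 kb (WT) from its start. Whether they are exonic or intronic was not analysed here.

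At the Ajuba site nearer the start, the alphaKO peak (54575481 to 54576132) had a pileup, the number of fragments at the summit, of 1497 and a fold of 158. The WT peak there (54575466 to 54576124) had a pileup of 1125 and a fold of 90.6. These peaks ranked 33 in the alphaKO list and 10 in the WT list. The second site had a fold of 117 in alphaKO (rank 116) and of 51.6 in WT (rank 106). Its pileups were closer, 909 in alphaKO and 801 in WT (ratio 1.13), and its local background was 6.77 in alphaKO and 14.5 in WT. Summits of the libraries lay 1 bp and 4 bp apart at the sites, and the sites lay 1338 bp apart in alphaKO and 1333 bp apart in WT.

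Such a pair of strong sites in 1 gene was rare in both lists. Ajuba was the only protein-coding gene with 2 or more summits in its body above the 99th percentile of fold in alphaKO (a fold of 110), and 1 of 2 genes in WT (a fold of 51.4), the other being Antxr1, which encodes an anthrax toxin receptor. This count was chosen after the values were seen, and the weaker WT site of Ajuba lay just above its limit. With peaks ranked by −log10 q or by pileup, Ajuba was the only such gene in each list. With the top 2 percent by fold, Antxr1 joined it in alphaKO, and Lama3 and Antxr1 joined it in WT.

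**Figure D2:**
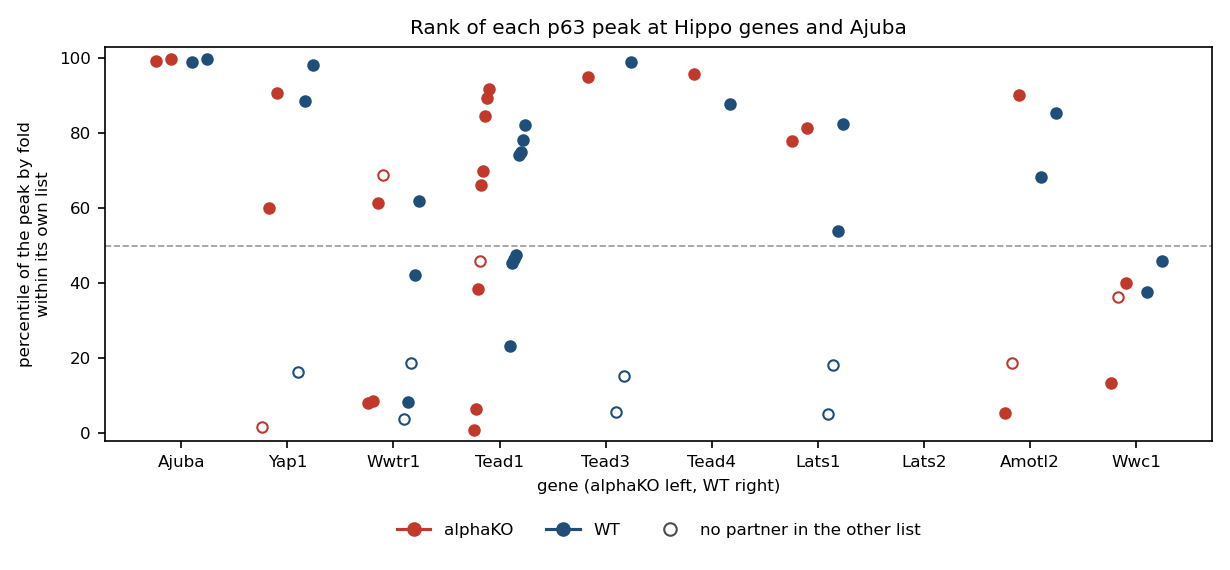
The vertical axis gives the percentile of each peak by fold within its own list (100 is the strongest) for each gene on the horizontal axis, with alphaKO peaks on the left and WT peaks on the right. The WT peaks without a partner (open points) lie between percentiles 3.89 and 18.7, whereas open alphaKO points reach 68.9.

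Yap1 and Wwtr1 encode the coactivators. Yap1 (chromosome 9, 7931999 to 8004638, minus strand) had no summit in its 72.6 kb body in either library. Its strongest site lay 28.4 kb upstream, within Cfap300, with a fold of 47.7 in alphaKO (percentile 90.6) and 43.8 in WT (percentile 98.3). A second shared site lay 30.8 kb beyond the end of the gene, nearer to Birc3, which encodes an inhibitor of apoptosis, with a fold of 19.0 in alphaKO and 21.8 in WT. The ratio of these folds, 0.875, stood at percentile 10.3 of all shared sites. A peak 31.1 kb upstream with a fold of 3.6 was listed in alphaKO alone.

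Wwtr1 (chromosome 3, 57455644 to 57575910, minus strand) had weak to moderate sites within its 120 kb body, with percentiles of 8.04 to 61.3 in alphaKO and 8.22 to 61.8 in WT for those listed in both libraries. Shared sites lay 21.3 kb from the start (fold 19.6 in alphaKO, 7.3 in WT), 22.6 kb (WT) or 22.8 kb (alphaKO) from it (6.3 in alphaKO, 10.5 in WT) and 108 kb from the start (6.49 in alphaKO, 3.53 in WT). At the middle one the summits lay 129 bp apart, the widest offset at the 10 genes, so the peaks may mark different positions. Sites in a single list were an alphaKO peak 18.2 kb upstream with a fold of 23.1 (percentile 68.9), the strongest alphaKO peak without a partner at the 10 genes, and WT peaks at the start (3.0) and 48.6 kb inside the gene (4.56).

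At the starts of Yap1, Wwtr1, Tead3 and Lats1, weak p63 peaks were listed in WT and none in alphaKO. Promoter windows of 300 bases (250 before an annotated start and 50 after it, from RefSeq, GRCm38.p6) were at hand for 8 of the 10 genes, Tead1 and Tead4 being without an entry. A peak overlapped such a window for 0 of these 8 genes in alphaKO and for 4 in WT, where 3.48% of 17492 protein-coding genes had one in alphaKO and 7.6% in WT. This count was made after the peaks were seen. Over the whole annotation, 34.4% (31.9 to 37.0) of genes with a WT promoter peak also had an alphaKO promoter peak. Tead1 was outside this promoter count. At its lower boundary a weak peak was listed in both libraries (fold 5.77 in alphaKO, 5.01 in WT). Whether that boundary is the start of Tead1 was not established, since its strand was not at hand.

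The 4 WT promoter peaks were among the weakest in their list. The Yap1 peak (8004518 to 8004804) had a fold of 4.31, a −log10 q of 19.7 and a summit 136 bp upstream of the annotated start. The Tead3 peak (28350826 to 28351423) had a fold of 4.2, a −log10 q of 17.4 and a summit 471 bp upstream, which is 0.239 kb from Tulp1. The Lats1 peak (7681094 to 7681483) had a fold of 3.14, a −log10 q of 4.46 and a summit 15 bp upstream, in a stretch that also belongs to the neighbouring gene Pcmt1, so it cannot be given to 1 of the genes. The Wwtr1 peak (57575774 to 57576203) had a fold of 3.0, a −log10 q of 5.89 and a summit 80 bp upstream. Requiring a −log10 q of at least 10 left Yap1 and Tead3, and requiring a fold of at least 5 left no gene in WT. A site under the threshold of the alphaKO list would not be listed there.

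For each of these 4 genes, the 250 bases before the most upstream start in the promoter table are shown because the WT peaks overlap them. That start differs from the gene boundary for Yap1 (8004596, inside the boundary at 8004638) and for Lats1 (7681209, inside the boundary at 7681200). They are read 5′ to 3′ along each gene from RefSeq GRCm38.p6: Yap1 at chr9:8004597-8004846 (minus strand), Wwtr1 at chr3:57575911-57576160 (minus), Tead3 at chr17:28350806-28351055 (minus) and Lats1 at chr10:7680959-7681208 (plus). Capitals mark GGAATG, the core of the TEAD binding motif, which was searched on both strands and was not found in the Lats1 stretch.
Yap1: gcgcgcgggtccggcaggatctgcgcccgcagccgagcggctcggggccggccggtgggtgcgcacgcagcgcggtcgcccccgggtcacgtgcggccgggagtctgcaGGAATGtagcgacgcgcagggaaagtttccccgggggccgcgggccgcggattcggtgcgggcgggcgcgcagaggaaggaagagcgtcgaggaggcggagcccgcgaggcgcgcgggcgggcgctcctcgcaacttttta
Wwtr1: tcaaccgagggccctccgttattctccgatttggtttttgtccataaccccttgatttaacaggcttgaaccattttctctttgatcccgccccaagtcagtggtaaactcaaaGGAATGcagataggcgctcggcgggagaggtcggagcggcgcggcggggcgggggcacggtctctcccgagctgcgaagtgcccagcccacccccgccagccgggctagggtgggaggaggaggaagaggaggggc
Tead3: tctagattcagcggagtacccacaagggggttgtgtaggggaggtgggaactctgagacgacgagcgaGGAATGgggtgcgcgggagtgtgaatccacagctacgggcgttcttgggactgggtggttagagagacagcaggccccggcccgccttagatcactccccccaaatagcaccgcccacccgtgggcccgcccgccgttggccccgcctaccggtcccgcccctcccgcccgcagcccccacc
Lats1: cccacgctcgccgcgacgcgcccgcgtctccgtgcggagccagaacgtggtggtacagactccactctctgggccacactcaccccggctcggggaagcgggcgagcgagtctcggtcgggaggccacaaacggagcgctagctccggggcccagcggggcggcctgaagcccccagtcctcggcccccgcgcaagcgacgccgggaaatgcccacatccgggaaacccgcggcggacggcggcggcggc

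GGAATG was found on either strand in the promoter windows of 6 of the 8 genes, where 15.5% of all 17492 genes with a window had it. The genes were Ajuba, Yap1, Wwtr1, Tead3, Lats2 and Amotl2, and the genes without it were Lats1 and Wwc1. In the stretches shown it began 141 bases before the start in Yap1, 136 in Wwtr1 and 182 in Tead3. The WT summit was 136 bases before the start in Yap1, 80 in Wwtr1 and 471 in Tead3. Of all 21263 windows of protein-coding genes, 13.6% held GGAATG. The share was 12.0% of the 973 with a peak in WT and none in alphaKO, and 15.6% of the 501 with a peak in both. A match describes letters and shows no binding by TEAD proteins, and these shares were not tested.

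A simplified pattern of the p53 family motif was searched, CATG and CNNG in either order with 6 bases between them. No promoter window of the 8 genes held it. Pairs without CATG were not searched, so a lack of the motif is not shown. Of all 21263 windows of protein-coding genes, 10.5% held the searched pattern. The share was 9.46% for the 973 with a WT peak and no alphaKO peak, and 13.2% for the 501 with both. The AP-1 motif TGANTCA was likewise found in 0 of the 12 windows of the 8 genes and in 6.99% of all windows. The stretches shown were rich in G and C: 76.4% for Yap1, 61.6% for Wwtr1, 67.6% for Tead3 and 74.8% for Lats1. These stretches hold 250 bases and the windows 300. The median over windows was 67.6% with a peak in WT alone, 62.8% with a peak in both lists and 55.6% over all windows.

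**Figure D3:**
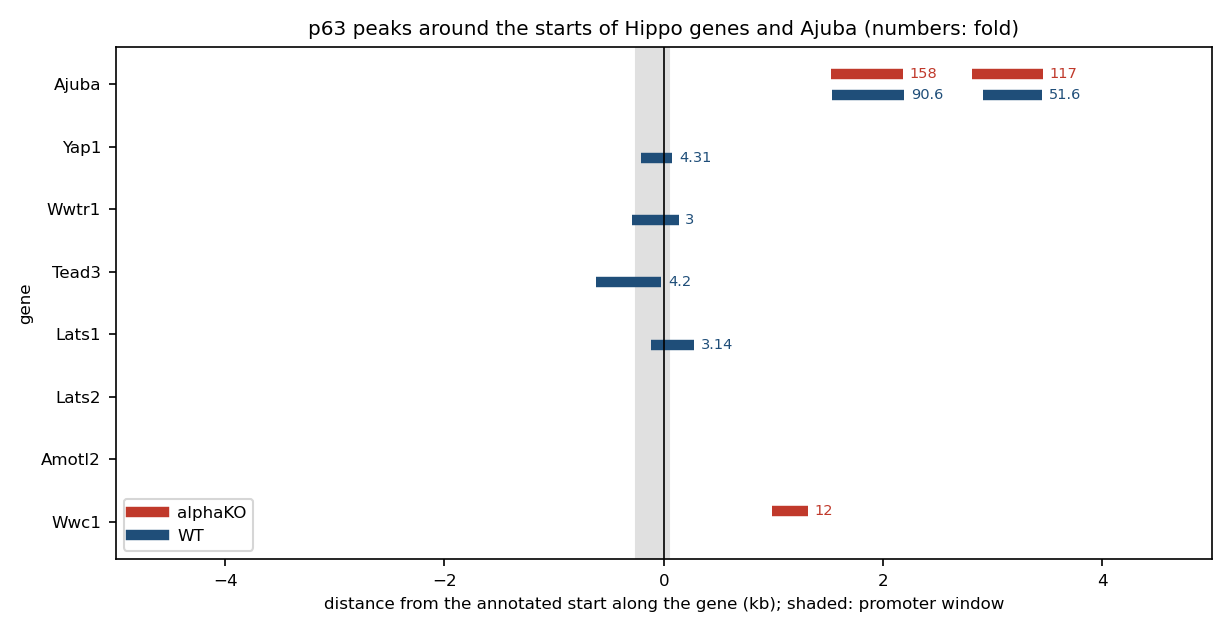
The horizontal axis is the distance in kb from the most upstream start in the promoter table along each gene, bars are the extents of p63 peaks (alphaKO above WT in each row), numbers are fold enrichment and the shaded strip is the promoter window. WT bars alone cross the strip, at Yap1, Wwtr1, Tead3 and Lats1, with folds of 3.0 to 4.31. The strong Ajuba sites lie downstream of the strip in both libraries. Tead1 and Tead4, without a promoter window, are not shown.

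Tead1, Tead3 and Tead4 encode DNA-binding partners of YAP and TAZ. Tead1 (chromosome 7, 112679356 to 112906784) had the most sites of the 10 genes, 9 in alphaKO and 8 in WT, and all 8 WT sites had an alphaKO partner. Counts at least as high were found for 98 genes in alphaKO and 117 genes in WT, and Tead1, at 227 kb, is the longest of the 10 genes. Its strongest sites lay 49.4 kb beyond its upper boundary, within Rassf10, a gene of the RASSF family (fold 50.7 in alphaKO, 17.5 in WT), and 9.19 kb (alphaKO) or 9.18 kb (WT) below its lower boundary (45.1 in alphaKO, 15.5 in WT). The site 21 kb inside had a fold of 37.0 in alphaKO and 13.8 in WT, and the site 150 kb inside 21.7 in alphaKO and 7.73 in WT.

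These Tead1 sites stood 9.53 to 20.9 percentile points higher in the alphaKO list than in the WT list. Other Tead1 sites did not. At the lower boundary itself a weak peak was listed in both libraries (5.77 in alphaKO, 5.01 in WT), and 1.67 kb inside the folds were 12.5 in alphaKO and 8.07 in WT. A site 18.2 kb (alphaKO) or 18.3 kb (WT) beyond the upper boundary had a fold of 23.7 in alphaKO and 14.1 in WT. The site 40.9 kb inside had a fold of 3.12 in alphaKO and 7.9 in WT. Its ratio of 0.395 was the lowest at the 10 genes and stood at percentile 0.397 of all shared sites. The alphaKO peak 41.0 kb beyond the upper boundary (fold 14.3) was the only Tead1 peak without a partner.

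Tead3 (chromosome 17, 28331671 to 28350805, minus strand) had 1 strong site in its body, 9.57 kb (alphaKO) or 9.58 kb (WT) from the start. The alphaKO peak had a pileup of 574 and a fold of 62.3 (percentile 94.9), and the WT peak a pileup of 563 and a fold of 51.9 (percentile 99), so the pileups were nearly equal and the rank was lower in alphaKO. Besides its promoter peak, a WT peak 24.9 kb upstream had a fold of 3.22 and no partner. Tead4 (chromosome 6, 128227143 to 128300813) had a single site, 38.4 kb beyond its upper boundary and within Tulp3, which encodes a protein of ciliary transport. Its summits coincided to the base, with a pileup of 458 and a fold of 67.4 in alphaKO and a pileup of 185 and a fold of 21.2 in WT.

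The kinase genes Lats1 and Lats2 had no summit in their bodies in either library. Lats1 (chromosome 10, 7681200 to 7716461, plus strand) had shared sites 17.1 kb upstream, within Pcmt1, and 12.8 kb beyond its end, within Katna1, which encodes a microtubule-severing enzyme. The upstream site had a fold of 32.6 in alphaKO and 9.04 in WT, and the ratio of 3.61 was the highest at the 10 genes (percentile 91.5 of all shared sites). The other site had a fold of 29.6 in alphaKO and 17.7 in WT, and a WT peak with a fold of 4.54, also within Katna1, had no partner. Lats2 (chromosome 14, 57689662 to 57746212) had its nearest peak 104 kb away in both libraries, with a fold of 18.5 in alphaKO and 9.78 in WT.

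Amotl2 and Wwc1 encode upstream regulators: Amotl2 is an angiomotin family protein of cell junctions that binds YAP, and Wwc1 (KIBRA) promotes LATS activity. Amotl2 (chromosome 9, 102717091 to 102733418, plus strand) had no summit in its body. At 4.16 kb (alphaKO) or 4.13 kb (WT) beyond its end the fold was 5.4 in alphaKO (percentile 5.41) and 12.1 in WT (percentile 68.4), and 41.2 kb beyond its end it was 46.7 in alphaKO and 19.3 in WT. The first of these had pileups of 28 in alphaKO and 93 in WT, a ratio of 0.301 that was the lowest at the 10 genes. An alphaKO peak 43.3 kb upstream, nearest to Anapc13, had a fold of 8.71 and no partner.

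Wwc1 (chromosome 11, 35838399 to 35980527, minus strand) had moderate to weak sites. A site 58.5 kb inside had a fold of 7.61 in alphaKO and 6.71 in WT, and a site 6.11 kb (alphaKO) or 6.13 kb (WT) upstream had a fold of 12.9 in alphaKO and 7.83 in WT. In alphaKO alone, a peak 1.14 kb inside the start had a fold of 12.0. The Wwc1 peaks were all below the median of their lists by fold.

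Across the 23 shared sites of the 10 genes, the libraries differed as the lists did in general. The ratio of alphaKO fold to WT fold had a median of 1.68 (quartiles 1.14 and 2.68), the same as over all shared sites. Fold was higher in alphaKO at 19 of 23 sites (82.6%) and at 83.7% of all shared sites. Percentile within the own list was higher in alphaKO at 10 of 23 sites (43.5%) and at 40.8% of all shared sites. The ratio of pileups had a median of 1.33 at the 10 genes and 1.4 over all shared sites. Summits lay a median of 6 bp apart at the 10 genes and 8 bp apart over all shared sites.

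**Figure D4:**
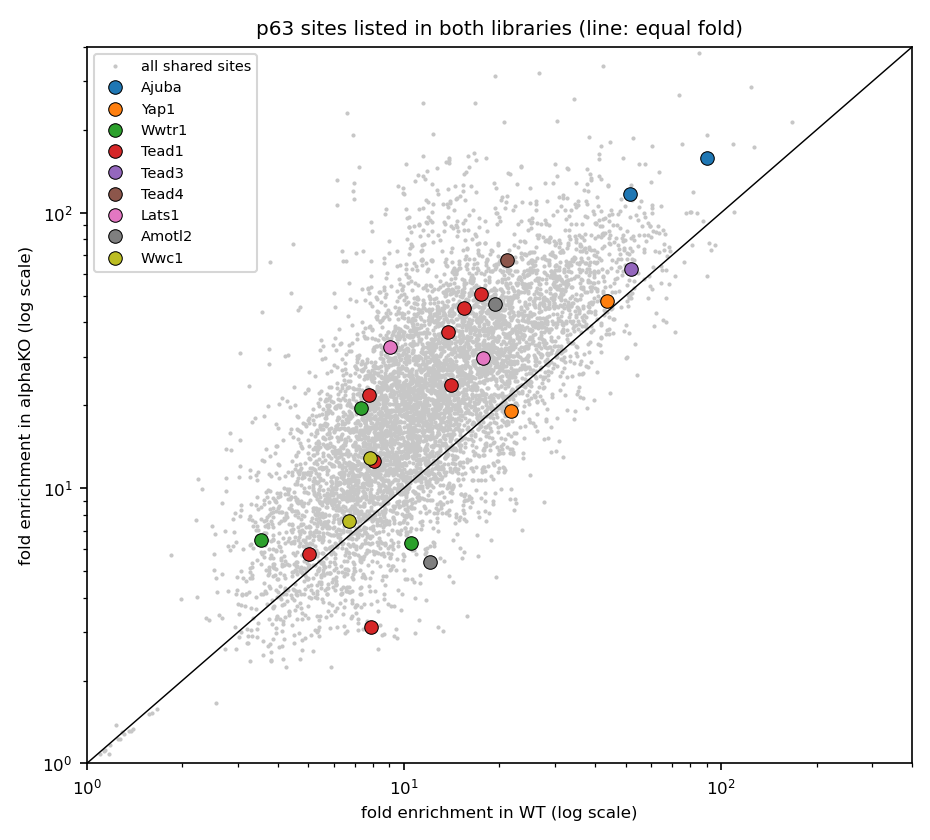
Fold enrichment in alphaKO (vertical, log scale) is plotted against fold in WT (horizontal, log scale) for all 7054 sites listed in both libraries in grey, with the 23 sites of the 9 genes in colour, and the line marks equal fold. Most coloured sites lie above the line with the grey cloud, and 4 lie under it, at Tead1, Wwtr1, Amotl2 and Yap1.

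The 4 shared sites with a lower fold in alphaKO were those described at Tead1, Amotl2, Wwtr1 and Yap1. The first 3 had ratios of 0.395, 0.445 and 0.599 and stood at percentiles 0.397, 0.737 and 2.82 of all shared sites. Pileups were also lower in alphaKO at these 3 sites, with ratios of 0.483, 0.301 and 0.464, but not at the Yap1 site, where the ratio was 1.03. At Tead1 alone the ratios ran between 0.395 and 2.92. Each value comes from 1 peak in 1 library per genotype.

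At the 10 genes, peaks without a partner differed in strength between the lists. The 7 WT peaks had folds of 3.0 to 4.56 and all were in the weakest 20% of the WT list (folds up to 4.7), of which 19.7% had a partner. The weakest 20% held 8 WT peaks of the 10 genes, and 1 of these, in Wwtr1, had a partner. The 5 alphaKO peaks had folds of 3.6 to 23.1, and 2 of them were in the weakest 20% of the alphaKO list (folds up to 8.95), of which 38.9% had a partner. The weakest 20% of the alphaKO list held 8 peaks of the 10 genes, and 6 had a partner. Over the whole lists, 66.6% of WT peaks and 48.4% of alphaKO peaks had a partner, more than in the weakest 20% of each. Nothing particular to the 10 genes is therefore read from the strength of their peaks without a partner.

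At the limit of the 50 kb rule, the sites just inside were those 49.4 kb from Tead1. Just outside it was a site 50.1 kb from Yap1, with a fold of 21.6 in alphaKO and 10.5 in WT. A distance of 100 kb gave 45 alphaKO and 46 WT peaks, and Lats2 still had none within it, the nearest being at 104 kb.

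Among 40 other genes of the pathway, 25 had a peak in alphaKO and 22 in WT by the same rule, 20 of them in both. As shares these are 62.5% and 55.0%, near the 55.1% in alphaKO and 47.1% in WT over all protein-coding genes, of which 41.0% had one in both. In the list called kinase core here, which includes Nf2, 4 of 6 genes had a peak in alphaKO and 0 in WT. These were Stk3, which encodes the MST2 kinase (strongest fold 22.2, 3.06 kb outside the gene), and the scaffold gene Sav1 (16.1, 0.661 kb outside, within or nearest to Atl1). The others were Mob1b, which encodes a LATS cofactor (14.6, within or nearest to Dck), and Nf2, which encodes merlin (9.88, inside the gene). Stk4 and Mob1a had none in either list. Each of these 4 strongest alphaKO peaks was without a WT partner. Stk4, Mob1a, Mob1b and Nf2, and below Ccn2 and Ankrd1, were singled out after their values were seen.

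Upstream and junctional regulators had a peak in alphaKO for 13 of 18 genes and in WT for 13, 12 of them in both. The highest alphaKO fold was at Limd1, which encodes another LIM protein of the Ajuba family. That alphaKO peak (131, 38.2 kb outside the gene and nearest to Sacm1l) had a WT partner. The strongest WT peak at Limd1 (6.41) lay at another site, inside the gene. Wwc2, a relative of Wwc1, had a shared site 37.1 kb outside the gene (66.1 in alphaKO, 31.1 in WT), and the kinase gene Map4k4 had a shared site inside the gene (45.1 in alphaKO, 28.7 in WT). Amotl1, a relative of Amotl2, had 5 alphaKO peaks (strongest 44.0) and 6 WT peaks (strongest 23.1, at another site). Both of these strongest peaks had a partner in the other list. Amot had a peak in alphaKO alone (9.07) and the polarity gene Crb3 in WT alone (4.03, within or nearest to Slc25a23).

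Of 5 nuclear partners 2 had peaks, both in both lists. Vgll4, which encodes a competitor of YAP for TEAD proteins, had 9 alphaKO and 6 WT peaks. Its strongest lay 18.4 kb outside the gene, within or nearest to Tamm41 (56.4 in alphaKO, 53 in WT). Vgll3 had a site 2.88 kb outside the gene (69.8 in alphaKO, 27.6 in WT). Of 11 target genes of YAP and TAZ, 6 had a peak in alphaKO and 7 in WT. F3, which encodes tissue factor, and the receptor kinase gene Axl had the highest folds in alphaKO. The F3 site (70.1 in alphaKO, 29.3 in WT) lay 47.2 kb outside the gene in alphaKO and 47.1 kb in WT, within or nearest to 4930432M17Rik. The Axl site (52.4 in alphaKO, 13.9 in WT) lay 0.262 kb outside the gene in alphaKO and 0.27 kb in WT. Ccn1, which encodes a matricellular protein, had a site 25 kb away (39.4 in alphaKO, 19.4 in WT). Crim1 had strongest folds of 38.5 in alphaKO and 14.1 in WT at different sites, each with a partner in the other list. Fstl1 had a WT peak alone (3.33, within or nearest to Lrrc58). Ccn2 and Ankrd1, widely used readouts of YAP activity, had none in either list.

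**Figure D5:**
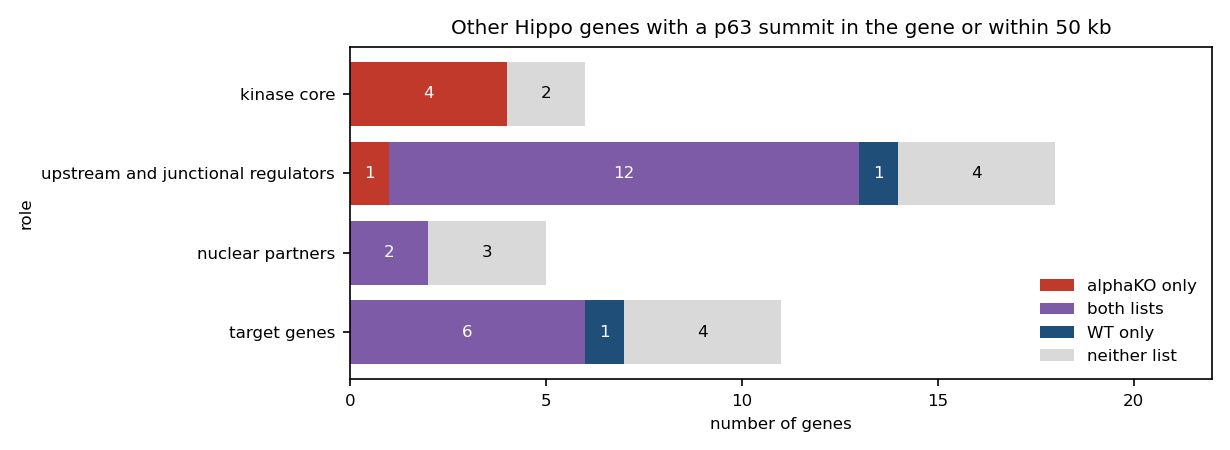
Bars count the other Hippo genes of each role on the vertical axis (number of genes on the horizontal axis) by whether a p63 summit reached by the 50 kb rule was listed in alphaKO only, in both lists, in WT only or in neither. The list called kinase core, which includes Nf2, has 4 of 6 genes with a peak in alphaKO only and none in both lists. The upstream regulators have 12 of 18 in both. Over all protein-coding genes 55.1% had a peak in alphaKO and 41.0% in both lists, and the counts by role were not tested.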

How the data were processed

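p63 ChIP libraries of alphaKO and WT epidermis were analysed from 1 peak list each, called per library and not pooled. Per the submitters' processing notes, Bowtie2 (version not given) and MACS2 2.1.1.20160309 were used with mm10. Columns that the authors deposited, per the file headers, hold a pileup (coverage signal), −log10 of p and q, and a fold enrichment (a ratio to the caller's local background), 1 row to a peak. Sources used here name neither the caller's options nor the control library of either call. Read totals are not in peak lists, so depth is unknown.

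Dividing the pileup plus 1 by the fold and subtracting 1 gave the local background. Gene positions and promoter windows came from RefSeq GRCm38.p6, the assembly that mm10 names; 10 of 10 genes and 40 of 40 other pathway genes matched by symbol. Overlap meant at least 1 bp. The code was tested on simulated positions. Genotypes were compared without a test, at 1 library each.

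The genes and lists were chosen with earlier results of these data known. All 10 genes are named; of each other list, up to 4 genes with a peak in both lists and the highest alphaKO fold, and up to 2 with a peak in a single list and the highest fold there; and the other gene that contains or is nearest to a summit. Motif searches used promoter windows, since no genome was used here. Alternatives changed the q and fold thresholds, the distance, the list length, the overlap rule, the ranking and the gene assignment. Python 3.11.15, pandas 2.3.3, NumPy 2.4.6, SciPy 1.17.1 and matplotlib 3.10.9 were used.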

Additional observations from a re-analysis of the deposited data

How the results depend on the processing

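No paired analysis was possible because each genotype had 1 ChIP library and no test was made. Of 88 comparisons of a main result with an alternative, 68 stayed within the counting interval or within 1.5 times the count and 20 moved further; for single genes these were 99 and 41. With summits in gene bodies only, the 10 genes held 13 alphaKO and 13 WT peaks, 5 of them had a peak in alphaKO and 5 in WT, 92.3% of alphaKO and 92.3% of WT peaks had a partner, and 16 (alphaKO) and 11 (WT) other Hippo genes had a peak. Within 10 kb there were 16 alphaKO peaks, 93.8% with a partner, and 21 WT peaks, 71.4% with a partner, at 6 genes in alphaKO and 8 in WT. Within 100 kb there were 45 alphaKO and 46 WT peaks. The WT share with a partner was 95.5% at a fold of at least 5 and 56.7% with equal list lengths, which shorten the alphaKO list. Where a peak counted only for its containing or nearest gene, 14 other Hippo genes had a WT peak. Under these alternatives the shares over all peaks and over all protein-coding genes were not computed. Nothing particular to the Hippo genes is therefore read from these shifts. Genes with a WT promoter peak numbered 2 at −log10 q of at least 10 and 0 at a fold of at least 5, beside 0 in alphaKO under each alternative tried. Genes with 2 or more top summits in WT numbered 1 when ranked by −log10 q and 1 by pileup. With the top 2 percent they numbered 2 in alphaKO and 3 in WT. The promoter, top summit and high background settings were added after the data were seen. Unless stated, the cause was not tested.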

Other observations

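By the same 50 kb rule, peaks lay near marker genes of epidermal keratinocytes and of other cell types of skin. Peaks do not measure RNA, so these values check no cell type. Over all protein-coding genes, the same rule gave a peak to 55.1% in alphaKO and 47.1% in WT. Of the keratinocyte genes Krt5, Krt14, Krt1 and Krt10, 3 had a peak in alphaKO and 4 in WT. Of 4 dermal fibroblast genes, 3 had a peak in alphaKO and 1 in WT; of 3 melanocyte genes 2 in alphaKO and 2 in WT; of 3 immune genes 2 in alphaKO and 1 in WT; and of 2 endothelial genes 1 in each. The fibroblast genes Lum and Dcn share their strongest alphaKO peak (fold 92.6), which had no WT partner, so they are not separate observations. Col1a1 had a shared site (22.3 in alphaKO, 12.9 in WT, within or nearest to Ppp1r9b), and Pdgfra had no peak in either list.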
